A study of Vitis vinifera with 2 samples.

Results

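Among the transposable elements (TEs) of Vitis vinifera that overlap annotated genes, 3490 combined high CG methylation with low CHG methylation in both tissues studied, and they are called CG-only genic TEs here. They were chosen by 2 limits that had to be met in leaf and in embryogenic callus (EC). CG methylation was at least 60% and CHG methylation was under 20% (H being any base but G). Only TEs listed in the CG, CHG and CHH tables of genic TEs could be judged. The CG-only TEs were 16.7% of these 20901 genic TEs (Wilson 95% interval 16.2 to 17.2), and 8.04% of the 43403 genic TEs listed in any context. The other 22502 genic TEs were missing from at least 1 context and were not judged. The whole series lists 184251 TEs.

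Both tissues came from the cultivar Chardonnay, and whole-genome bisulphite sequencing gave 1 library for young leaves and 1 for proliferating EC. EC is a culture of dedifferentiated cells that was raised here from anthers and can form somatic embryos. Each library was made from pooled material, either leaves of the same vines or callus from several Petri dishes. There were no replicates, so all differences below are descriptions of these libraries without a test, and depth per TE is unknown because the tables hold methylation levels and no read numbers.

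In plants, CG methylation is copied to the new DNA strand after replication by the methyltransferase MET1. CHG methylation is kept by CMT3 together with methylated histone H3K9, and is a mark of silenced TEs. CHH methylation has to be placed anew, by CMT2 in heterochromatin or by DRM2 guided by small RNAs (RNA-directed DNA methylation). The bodies of many transcribed plant genes carry CG methylation without CHG or CHH methylation, a pattern known as gene body methylation. The CG-only genic TEs were set against other genic TEs because a TE that lies in a gene can be methylated either as a silenced TE or as gene body. Which genes hold these TEs, and whether they lie in exons or introns, is not analysed here.

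CG and CHG levels were fixed by the choice of the TEs and are given as a description. The median CG methylation of CG-only genic TEs was 89.9% in leaf (quartiles 82.7 to 94.1) and 90.95% in EC (82.4 to 95.5). These medians lay far above the lower limit. Of the 3490 TEs, 1236 (35.4%) were at 90% or more in both tissues, against 31.5% of all genic TEs. Among other genic TEs that met the same CG limit in both tissues this share was 34.4%, so it was close to that of the CG-only TEs. The median CHG methylation was 2.74% in leaf (quartiles 0.210 to 8.79) and 2.25% in EC (0.363 to 5.91). CHG was listed at 0 in leaf for 829 TEs (23.8%, against 6.44% of all genic TEs). CHG was listed at 0 in EC for 802 (22.98%, against 6.33%) and in both for 382 (10.9%, against 3.07%). It was lower in EC than in leaf for 1699 TEs (48.7%, against 62.6% of all genic TEs) and higher for 1398 (40.1%, against 34.3%), with a median change of 0 percentage points. Most CG-only TEs were thus well inside both limits.

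The limits cut through a continuous range rather than a gap. The TE just inside the CG limit lay at chr6:5466309-5467187, where leaf had 89.8% CG methylation and EC 60%. The one just outside lay at chr11:14314574-14315431, at 59.97% and 65.01%. Just inside the CHG limit was a TE at chr7:18336266-18336895, where CHG was 19.99% in leaf and 10.09% in EC. Just outside was one at chr19:22909872-22910349, at 20% and 10%. There were 151 TEs within 2 percentage points inside the CHG limit and 153 within 2 points outside it. Their median CHH methylation in EC was 7.41% and 6.94%, so CHH showed no step at the limit.

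The limits were met by more genic TEs in EC than in leaf. In leaf 4101 genic TEs met both, of which 85.1% also met them in EC. In EC 6233 met both, of which 55.99% also met them in leaf. Of the 2743 TEs within the limits in EC alone, 2591 had CHG methylation at or above the limit in leaf. Their median CHG was 45.2% in leaf and 9.79% in EC, while their median CG stayed at 89.3% and 89.6%. The CG-only genic TEs described here were thus a smaller set than the genic TEs found in this state in EC.

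CHH methylation was not used to choose the TEs. It was low in CG-only genic TEs in both tissues. The median was 0.240% in leaf (quartiles 0.0500 to 0.600) and 3.38% in EC (1.36 to 6.85). The other 17411 genic TEs had a median CHH methylation of 2.36% in leaf and 19.3% in EC. This was 9.83 times and 5.71 times the level of the CG-only TEs. The paper reports a bisulphite conversion rate for the leaf library. The leaf median of CG-only TEs lay below the share of unconverted cytosines that this rate implies, so the leaf ratio is uncertain. In EC the upper quartile of the CG-only TEs, 6.85%, was below the lower quartile of the others, 10.5%. The median of the CG-only TEs was lower than that of the others on 19 of 19 chromosomes. Genic TEs with both CG and CHG methylation of at least 60% in both tissues, 5869 in number, stood further still from the CG-only TEs, with median CHH of 3.22% in leaf and 33.2% in EC.

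**Figure D1:**
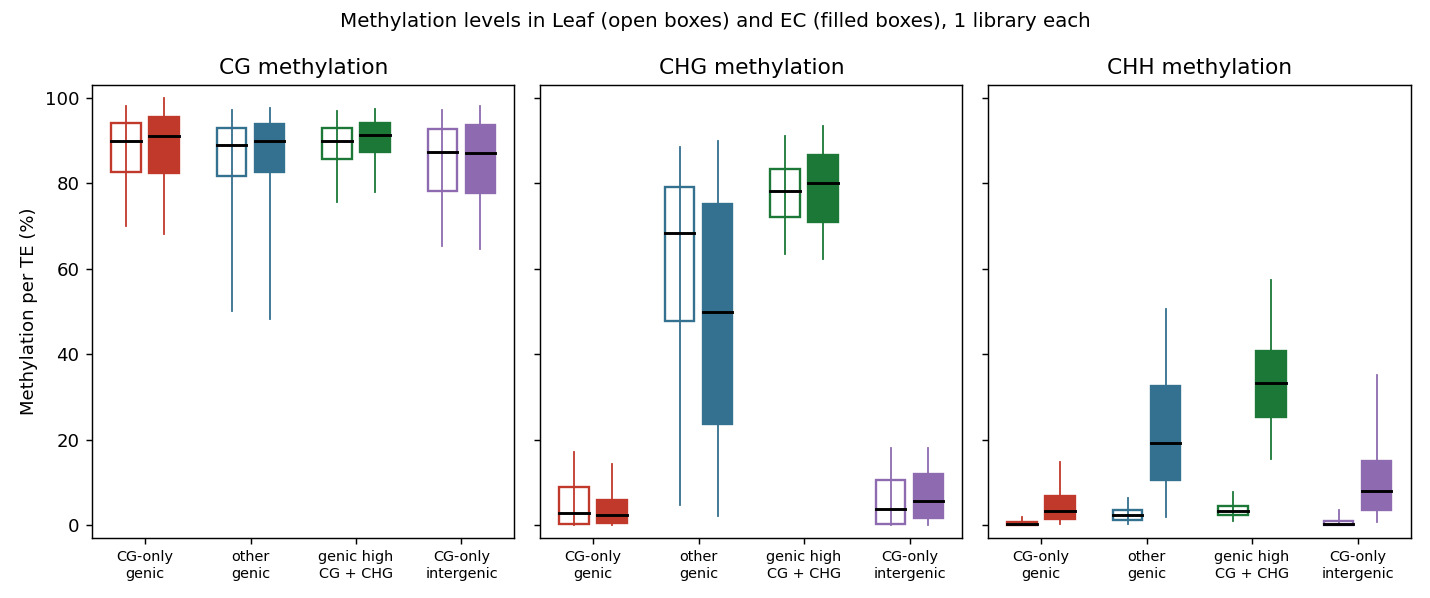
Methylation per TE (%) in the CG, CHG and CHH contexts for CG-only genic TEs (n = 3490), other genic TEs (n = 17411), genic TEs with CG and CHG of at least 60% (n = 5869) and intergenic TEs within the CG-only limits (n = 981). Open boxes are leaf and filled boxes are EC, with quartiles as the box, the median as the black line and the 5th to 95th percentiles as the thin line. CG and CHG were fixed by the choice of TEs in 3 of the 4 classes. CHH in EC has a median of 3.38% in CG-only genic TEs and 19.3% in other genic TEs.

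The rise of CHH methylation in EC was present but small. CHH was higher in EC for 3321 of the 3490 TEs (95.2%, against 97.6% of all genic TEs), with a median change of 2.97 percentage points (quartiles 1.09 to 6.16), against 16.5 in the other genic TEs. A rise of at least 10 percentage points was seen in 393 CG-only TEs, or 11.3% (Wilson 95% interval 10.3 to 12.4). Over all 20901 genic TEs this share was 60.3%, so the CG-only TEs lay well below the background. A rise of at least 20 points was seen in 51 of them (1.46%), against 34.8% of all genic TEs. CHH was lower in EC for 101 CG-only TEs, or 2.89% (1.57% of all genic TEs), with a median change of -0.28 percentage points. The largest fall was from 10.4% in leaf to 5.37% in EC, and no CG-only TE fell by 10 points (0.00478% of all genic TEs did). CHH was listed at 0 in leaf for 765 TEs (21.9%) and in EC for 94 (2.69%). Among other genic TEs these shares were 3.91% and 0.850%.

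CHH in EC followed the small amount of CHG methylation that the limits allowed. The 802 CG-only TEs with CHG listed at 0 in EC had a median CHH of 1.25% in EC (quartiles 0.550 to 2.78). The median was 1.91% where CHG was above 0 and under 2%, and 3.82% where CHG was from 2% to under 5%. It was 6.50% where CHG was from 5% to under 10% and 10.6% (7.16 to 14.96) where CHG was from 10% to under 20%. Leaf CHH moved the same way at a lower level, from 0.130% to 0.560% over the same classes. All but the highest of these leaf medians lay below the share of unconverted cytosines that the paper's leaf conversion rate implies. The Spearman correlation of CHG and CHH in EC was 0.65 across the 3490 CG-only TEs and 0.76 across the 611 of at least 1000 bp, compared with 0.83 across the other genic TEs, whose CHG range is wider. It is a correlation across TEs that come from the same library and whose reads cover both contexts, and TEs are not independent replicates. CHG in leaf was a weaker guide to CHH in EC, with a correlation of 0.28 in CG-only and 0.32 in other genic TEs.

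In EC the CHH level of a CG-only TE was often above its CHG level. This was so for 2263 of 3490 TEs (64.8%), compared with 9.46% of the other genic TEs and 16.2% of the same CG-only TEs in leaf. The order of the 2 non-CG contexts thus differed between the tissues for many of these TEs, although both levels were low. The contrast with other genic TEs is bounded by the upper limit on CHG, which they need not meet. Among intergenic TEs within the same limits in both tissues the shares were similar, at 67.99% in EC and 19.1% in leaf. The order was therefore not particular to genic TEs.

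Intergenic TEs that met the same limits in both tissues were rare, at 981 of 67669 (1.45%, Wilson 95% interval 1.36 to 1.54), and gained more CHH. Their median CHH was 0.320% in leaf and 8.02% in EC, the latter 2.37 times that of the CG-only genic TEs. A rise of at least 10 points was seen in 38.4% of them. Their CHG in EC was also somewhat higher, with a median of 5.56%. Within the same CHG class the intergenic TEs still had the higher median CHH in EC, at 14.5% against 10.6% for CHG from 10% to under 20%, and 3.02% against 1.25% for CHG listed at 0. The quartiles of the 2 classes overlapped in each case. The genic TEs within the limits in EC alone lay above the CG-only genic TEs in the lowest CHG classes, at 1.70% for CHG listed at 0 and 2.40% for CHG above 0 and under 2%. They lay below them in the other 3 classes, at 3.25%, 5.44% and 8.38%.

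**Figure D2:**
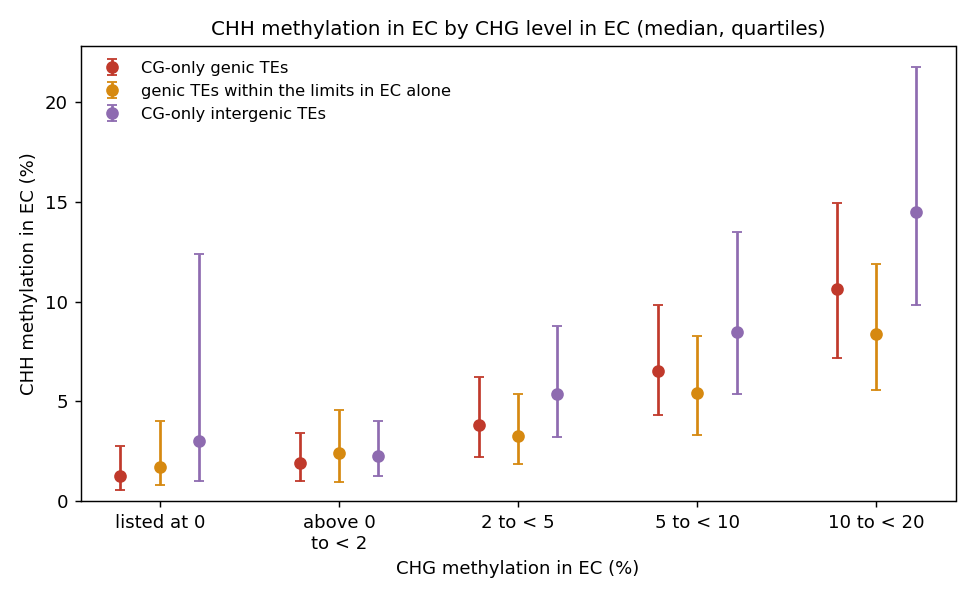
CHH methylation in EC (%) by class of CHG methylation in EC for CG-only genic TEs, genic TEs within the limits in EC alone and CG-only intergenic TEs. Points are medians and bars run from the lower to the upper quartile over TEs of 1 library. The median of CG-only genic TEs climbs from 1.25% to 10.6%, and intergenic TEs lie above it in each class.

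A few CG-only genic TEs reached high CHH levels in EC. In EC 61 of them (1.75%) had CHH of at least 20%, against 48.3% of other genic TEs. They had a median CHH of 0.820% in leaf and 24.9% in EC, a median CHG of 6.94% and 12.5%, and a median length of 303 bp. The name CG-only therefore does not describe these TEs in EC. Among the 1577 CG-only TEs of at least 500 bp, the largest CHH rise was at chr8:3000009-3000645 (minus strand). There CHH was 0.150% in leaf and 23.7% in EC, and CHG was 8.41% and 18.2%. The next lay at chr5:2207078-2207608 (minus strand), with CHH of 0.460% and 24.02% and CHG of 19.05% and 19.5%. The third lay at chr13:16216594-16217148 (minus strand), with CHH of 0.510% and 22.6%. Its CHG was listed at 0 in leaf and was 16.6% in EC. At the other end, a TE of 677 bp at chr19:339241-339917 had CHH of 0.150% in leaf and was listed at 0 in EC. Another of 508 bp at chr5:4125469-4125976 had 0.0300% in leaf and was also listed at 0 in EC. Both had CHG listed at 0 in both tissues while CG was 90.6% and 96.1% in the former and 91.2% and 73.6% in the latter.

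CG methylation changed little in the middle of the distribution. The median change from leaf to EC was 1 percentage point (quartiles -4.24 to 5.56), and the change was positive for 1924 TEs (55.1%, against 56% of all genic TEs) and negative for 1540 (44.1%, against 43.2%). Other genic TEs had a median change of 0.930 and those with CG of at least 60% in both tissues one of 1.03, so the medians differed by 0.0700 and -0.0300 percentage points. Both of these medians lay within the 95% binomial interval of the CG-only median, 0.680 to 1.27, and the sign of the difference depended on the comparison. A rise of at least 10 points was seen in 414 CG-only TEs (11.9%), against 11.6% of all genic TEs. A fall of at least 10 points was seen in 408 (11.7%), against 10.5%. Both shares were close to the background of all genic TEs. The same lower limit applies to the other genic TEs with CG of at least 60% in both tissues. Rises of this size were seen in 9.32% of them and falls in 7.11% (Wilson 95% interval 6.71 to 7.52, against 10.7 to 12.8 in CG-only TEs). Both shares were lower than in CG-only TEs, but the intervals count TEs as independent and no test was made. The TEs of this class were also longer, with a median of 858 bp against 441 bp. The lower limit on CG bounds the falls that can be seen in the CG-only TEs.

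Single TEs varied more than the medians. The standard deviation of the CG change over CG-only TEs was 9.41 percentage points, compared with 7.78 in other genic TEs with CG of at least 60% in both tissues and 12.2 in all other genic TEs. The CG-only TEs thus varied more than the former, which share their limit on CG, and less than the latter, which do not. These classes also differed in length, with medians of 441 bp for CG-only TEs, 858 bp for the former and 778 bp for the latter. What part length has in the contrast was not tested. For CG-only TEs it was 9.17 under 200 bp, 10.1 from 200 to under 500 bp, 9.41 from 500 to under 1000 bp, 8.37 from 1000 to under 3000 bp and 6.77 in the 12 TEs of 3000 bp or more. The largest rise among TEs of at least 500 bp was at chr1_random:303707-304841, on sequence of chromosome 1 that was not placed in order, where CG was 63.5% in leaf and 95.3% in EC. It was followed by a TE at chr11:7683603-7684292, at 65.7% and 95.2%, and one at chr10:4830959-4831460, at 63.7% and 93.2%. The largest fall was at chr11:1013639-1014402, from 96.7% to 61.8%. Next were TEs at chr16:912582-913283, at 96.4% and 63.5%, and at chr18:12562078-12563093, at 93.5% and 60.7%. These extremes lie near the limit in one tissue by construction, and their CHG stayed between 0% and 9.96% in both tissues.

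**Figure D3:**
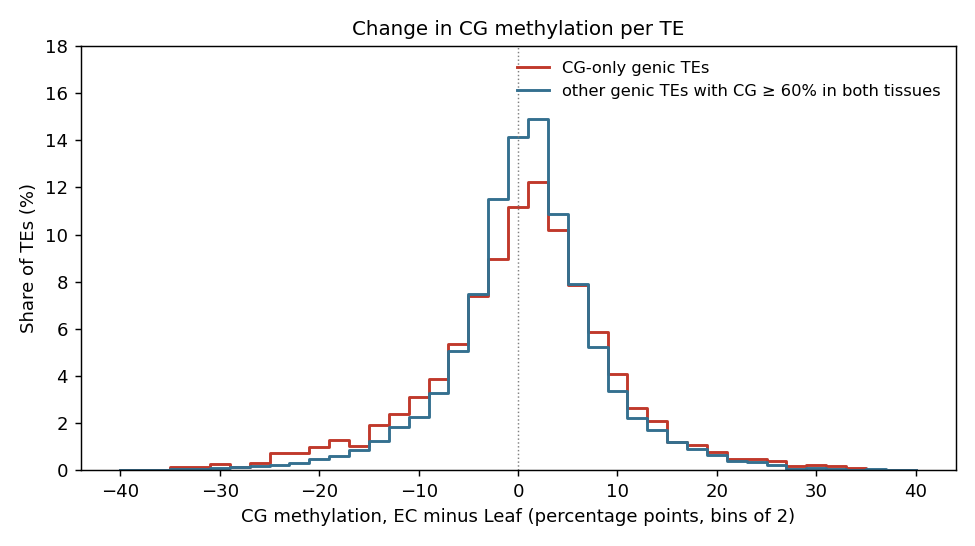
Change in CG methylation per TE (EC minus leaf, percentage points, bins of 2) as a share of TEs (%), for CG-only genic TEs (red, n = 3490) and other genic TEs with CG of at least 60% in both tissues (blue, n = 15566). Both curves peak just above 0, with medians of 1 and 1.03, and the red curve is the wider, with a standard deviation of 9.41 against 7.78. The TEs of the red curve are shorter, with a median length of 441 bp against 858 bp.

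The median CG change of CG-only TEs was positive on 16 of 19 chromosomes and negative on 3. The lowest was -0.42 percentage points, on chromosome 18, and the highest 2.38, on chromosome 19. Some medians lay near 0, such as 0.02 on chromosome 12, 0.125 on chromosome 14 and -0.04 on chromosome 16. On chromosome 6 the median was 0.690, whereas the other genic TEs there had -1.04, their lowest value on any chromosome. The mean change of the CG-only TEs on chromosome 6 was negative, at -0.178. Over the 19 chromosomes the medians of CG-only and other genic TEs had a Spearman correlation of 0.68, with each pair of values taken from the same 2 libraries.

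CG-only genic TEs were short. Their median length was 441 bp (quartiles 241 to 796), compared with 778 bp for other genic TEs and 1144 bp for genic TEs high in both CG and CHG. The share of genic TEs that were CG-only fell with length. It was 25.7% under 200 bp (708 of 2751), 23.2% from 200 to under 500 bp, 18.9% from 500 to under 1000 bp, 10.4% from 1000 to under 3000 bp and 0.580% at 3000 bp or more (12 of 2069). CG-only TEs thus made up 8.48% of the summed length of the genic TEs, 2106435 of 24852836 bp, against 16.7% of their number. Intergenic TEs within the same limits were similarly short, with a median of 408 bp. A short TE holds fewer cytosines, and CHG was listed at 0 in EC for 43.4% of the CG-only TEs under 200 bp and 4.67% of those from 1000 to under 3000 bp.

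Length and CHH were related in both classes of genic TE, but the gap between them was present at each length. Median CHH in EC of CG-only TEs was 2.33% under 200 bp, 3.10% from 200 to under 500 bp, 3.75% from 500 to under 1000 bp and 4.24% from 1000 to under 3000 bp. In the same classes other genic TEs had 15.02%, 17.5%, 17.97% and 19.3%. The 12 longest CG-only TEs had a median of 8.82%, and the 2057 other genic TEs of 3000 bp or more had 28.9%.

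**Figure D4:**
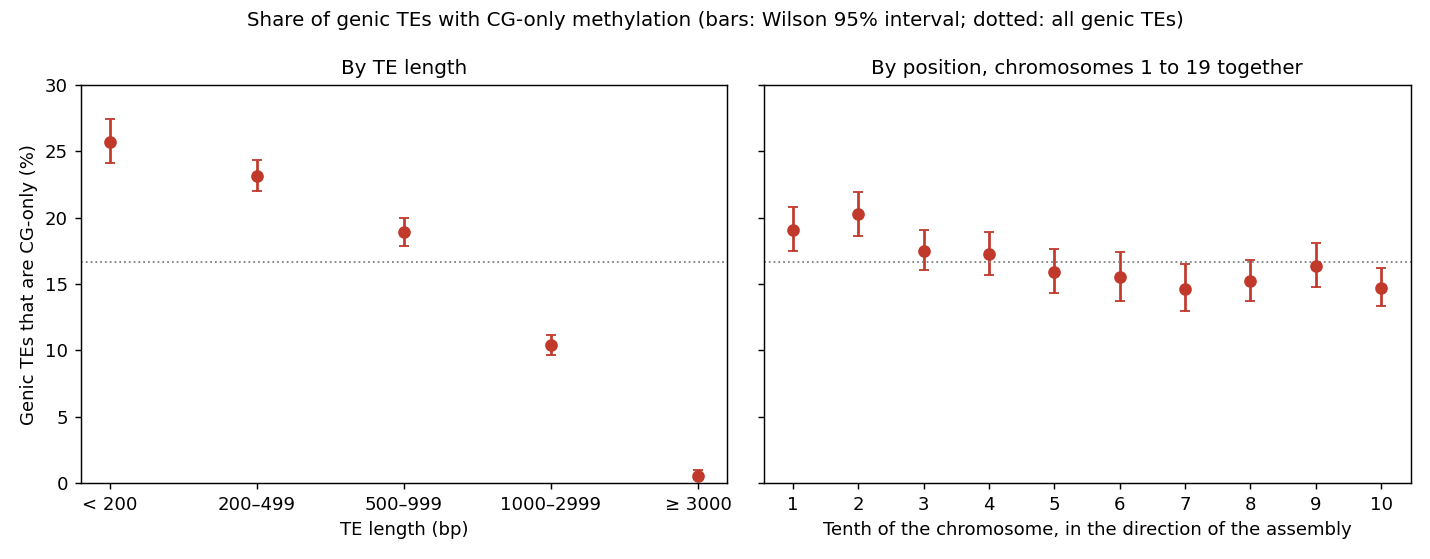
Share of genic TEs listed in 3 contexts that were CG-only (%), by TE length on the left and by position in 10 equal parts of each chromosome on the right, pooled over chromosomes 1 to 19. Bars are Wilson 95% intervals, which count TEs as independent, and the dotted line is the share over all genic TEs, 16.7%. The share drops from 25.7% under 200 bp to 0.580% at 3000 bp or more, and along chromosomes it is highest in the second part, at 20.2%.

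The longest CG-only genic TEs showed more CHG and CHH than the median. The longest, of 5367 bp, lay at chr5:13736066-13741432 (plus strand). Its CG was 89.2% in leaf and 88.9% in EC, its CHG 18.3% and 19.02%, and its CHH 1.08% and 19.1%. It lay 91 bp from a genic TE that was high in both CG and CHG. The second, of 5287 bp, lay at chr3:14970729-14976015 (plus strand), with CG of 74.5% and 65.7% and CHH of 0.940% and 10.5%. The third, of 4713 bp, lay at chr3:11213646-11218358 (minus strand), with CG of 75.8% and 80.1% and CHH of 0.770% and 8.13%. These 3 TEs were above the median CHH of CG-only TEs in EC. The fourth, of 4345 bp, lay at chr10:11822393-11826737 (plus strand), with CHH of 1.42% and 13.5%. The fifth, of 4038 bp, lay at chr5:2187101-2191138 (minus strand), with CG of 78.6% and 73.2%, CHG of 9.89% and 2.30% and CHH of 0.260% and 3.47%. Only the fifth was close to the median CHH in EC.

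CG-only genic TEs were spread over all 19 chromosomes. Their share of the genic TEs listed in 3 contexts ran from 12.7% on chromosome 15 (112 of 879, Wilson 95% interval 10.7 to 15.1) to 20.5% on chromosome 6 (219 of 1067, 18.2 to 23.1). Chromosomes 8, 1 and 17 followed chromosome 6, with 18.8%, 18.7% and 18.3%, and their intervals overlapped its own. A further 95 lay on sequences that the assembly did not place in order, where the share was 14.5% of 654. Each chromosome, from its first base to its last TE, was also divided into 10 equal parts in the order of its coordinates. The share was 19.1% in the first part and 20.2% in the second, and 14.7% in both the seventh and the last. Median CHH in EC of the CG-only TEs ran the other way over part of this range, with 2.56% in the second part and 4.50% in the seventh. It was alike in the first and the last part, at 2.955% and 2.92%, although their shares differed.

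The share varied more between windows of 1 Mb. In the 387 windows with at least 20 genic TEs its median was 16.3% (quartiles 11.5 to 20.9), and 9 of these windows had no CG-only TE. The highest share was 47.5% (28 of 59, Wilson 95% interval 35.3 to 59.96), at chr1:1000001-2000000. The 28 TEs there had a median CG of 91.98% in leaf and 86.3% in EC and a median CHH of 0.135% and 2.37%. Next was chromosome 14 from 20000001 to 21000000, with 45.8% (11 of 24). Windows in which a larger part of the TEs was genic tended to have a larger share of CG-only TEs among their genic TEs. The Spearman correlation was 0.31 over the 387 windows. All 435 windows with a genic TE listed in 3 contexts were also divided into 4 nearly equal groups by the part of TEs that was genic. From the lowest to the highest group the share was 13.3%, 14.5%, 17.7% and 18.7% of genic TEs. Median CHH in EC of CG-only TEs was 3.86%, 4.13%, 3.21% and 2.95% over these groups, and that of other genic TEs fell from 26.8% to 16.8%.

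CG-only genic TEs lay next to each other more often than their overall share. The nearest genic TE listed in 3 contexts was itself CG-only for 1294 of 3490 (37.1%, Wilson 95% interval 35.5 to 38.7). For other genic TEs this share was 10.6%, and CG-only TEs were 16.7% of all genic TEs. The share decreased with distance. It was 51.8% where both TEs overlapped or touched (116 of 224), 44.04% from 1 to 1000 bp, 30.4% over 1000 and up to 10000 bp and 23.3% over 10000 bp (109 of 468, 19.7 to 27.3). Among other genic TEs the share was 4.22% where both TEs overlapped or touched and 17.3% over 10000 bp. Overlapping TEs share reads, and neighbours may lie in the same gene, so they are not independent observations.

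**Figure D5:**
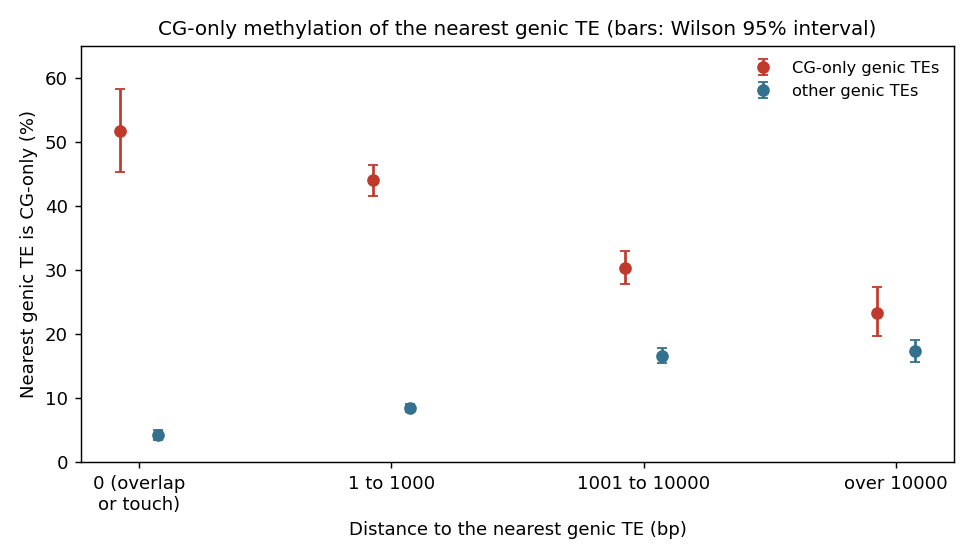
Share of TEs whose nearest genic TE was CG-only (%), by distance to that TE (bp), for CG-only genic TEs (red) and other genic TEs (blue). Bars are Wilson 95% intervals, which count TEs as independent. The share is 51.8% against 4.22% for TEs that overlap or touch, and 23.3% against 17.3% over 10000 bp.

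Counted along the chromosomes, 1843 CG-only TEs (52.8%) stood in a run of at least 2 consecutive genic TEs that were all CG-only, and 28 runs had at least 5. Some runs would also arise if CG-only TEs, at 16.7% of genic TEs, were placed at random, and that share was not computed. The longest run held 10 TEs of 64 to 1277 bp at chr6:17034388-17049749, a span of 15362 bp. Over these 10 TEs CG ran from 79.1% to 94.2% in leaf (median 90.2%) and from 78.2% to 97.6% in EC (median 86.3%). CHG ran from 0.910% to 17.96% in leaf and from 0% to 8.08% in EC, with medians of 7.09% and 0.935%. CHH had a median of 0.230% in leaf and 2.42% in EC and did not pass 9.70% in any of them.

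CHH in EC was lower in CG-only TEs that lay away from densely methylated TEs. The median was 6.46% in the 168 with a genic TE high in both CG and CHG within 1000 bp, 4.43% with one over 1000 and up to 10000 bp away, 2.73% with one over 10000 and up to 100000 bp away and 2.42% in the 559 beyond that. CHG in EC went down alongside, with medians of 4.37%, 2.78%, 1.94% and 1.59%. The upper and lower quartiles of neighbouring classes overlapped. An intergenic TE lay within 1000 bp of 2.03% of the CG-only TEs, against 7.37% of other genic TEs. The 71 CG-only TEs with one so close had a median CHH of 5.78% in EC, compared with 2.90% with one over 1000 and up to 10000 bp away and 3.95% beyond.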

How the data were processed

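Bisulphite sequencing libraries of leaf and EC (1 each, grouped by the tissue label) were mapped by the authors to the PN40024 reference (12X build) with BS-Seeker2, and calls were made and averaged with cgmaptools. TEs were divided by overlap with genes (at least 1 bp) using bedtools and kept by the authors where effective coverage was above 20 in both libraries. All values were deposited as a fraction between 0 and 1, per TE and context or per gene bin, and were multiplied by 100 to give a percentage. Unconverted cytosines are read as methylated, and mapping to another cultivar can turn a C-to-T difference into a loss of methylation. Depth, coverage and TE names were not given, so no interval for a single TE was computed.

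Starts were taken to be counted from 0, which the submitters do not state, and were written from 1. All positions and lengths given rest on this reading. The tables were joined by position, the limits applied, and medians, quartiles and shares computed in Python 3.11.15 with pandas 2.3.3 and scipy 1.17.1. Wilson 95% intervals and binomial intervals of medians treat TEs as independent. Distances were taken between TE edges. The procedures were tested on simulated data. TEs were named as the 5 longest, the 3 with the largest CHH rise, CG rise and CG fall and the 2 with the smallest CHH in EC (those by change or CHH of at least 500 bp), the TEs next to each limit, and the longest run. The 1 Mb windows named were chosen after their values were seen. The CG-only TEs, limits and comparisons were chosen with earlier results of these data known. Host genes, exons, introns, CpG content and sequences were not analysed here, since no genome of this build was used. The average profiles over all genes and over all TEs were not used. The tables hold no columns of the authors' own comparisons.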

Additional observations from a re-analysis of the deposited data

How the results depend on the processing

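Over 10 results, 72 values were recomputed under alternatives. Of these, 35 kept their sign and stayed within the interval of the original (1.5 times for the count). Another 32 kept their sign but lay outside it, and 5 changed sign. A change of sign was counted apart, also where the value lay within the interval. The interval of a median or share is narrow at this number of TEs, so small shifts lie outside it, and depth is unknown. The difference in median CG change between CG-only and other genic TEs had no stable sign. It was 0.0700 percentage points, and became -0.17 for TEs of at least 500 bp, -0.005 with the longest of overlapping TEs, -0.68 with the limits in leaf alone, -0.14 with means and -0.03 against other TEs with CG of at least 60%. Limits in leaf alone moved the CG change to 0.360, and means moved it to 0.476. 

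The lower CHH of CG-only TEs kept its direction throughout. Their median EC CHH minus that of others, -15.9 percentage points, was -14.99 with CG of at least 80%, -16.4 for TEs of at least 500 bp, -17.3 with means, -17.1 against others with CG of at least 60% and -14.3 with others weighted to the same lengths. With CHG under 10% the share of genic TEs was 12.2%, median CHH 0.170% in leaf and 2.62% in EC, the share rising by 10 points 5.66%, median length 410.5 bp and the CG-only share of neighbours 31.8%. With CG of at least 80% the share of genic TEs was 11.9%, length 409.5 bp and neighbours 29.6%. TEs of at least 500 bp gave 1577 CG-only TEs, 12.2% of genic TEs, CHH of 0.290% and 4.04%, length 847 bp and neighbours 29.5%. Limits in leaf alone gave 19.6% of genic TEs, EC CHH of 3.78%, a share rising by 10 points of 17.6%, length 422 bp and neighbours 40.1%. Means were 0.493% and 4.97% for CHH and 603.6 bp for length. A minimum rise of 20 points gave 1.46%, and neighbours within 10 kb gave 39.2%. The cause of these moves was not tested, except that limits on length or difference act by construction. Chromosomes 1 to 19 alone moved none of the 10 results beyond its interval. The alternatives for exons, introns and CpG content were not run. No paired analysis was possible because each tissue had 1 library.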

Other observations

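Strand and crowding of the CG-only genic TEs were also recorded. The minus strand held 1526 of the 3490 (43.7%, Wilson 95% interval 42.1 to 45.4), compared with 49.4% of other genic TEs and 45.1% of the intergenic TEs within the same limits. CG-only TEs overlapped or touched another genic TE in 6.42% of cases, against 14.7% of other genic TEs. CG was listed at 100% in EC for 223 CG-only TEs (6.39%) and in leaf for 105 (3.01%), against 308 (1.77%) and 261 of the 17411 other genic TEs. These values were noted after the data had been seen and no test stands behind them.

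The genic TEs within the limits in leaf alone were few, at 611. For 337 of them CHG was at or above the limit in EC, and for 297 CG was below it. Their median CHG was 6.25% in leaf and 21.7% in EC, and their median CHH 0.430% and 11.8%, compared with 0.240% and 3.38% in the CG-only TEs. The 2743 genic TEs within the limits in EC alone had a median CHH of 1.18% in leaf and 6.10% in EC and a median length of 589 bp.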
